A study of Homo sapiens with 13 samples.

Results

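Acetylation of lysine 9 of histone H3 (H3K9Ac) was mapped by chromatin immunoprecipitation and sequencing (ChIP-seq) in TE-7 cells given interleukin-13 (IL-13) at 100 ng/ml for 6 hr and in control cells, with 1 library for each. TE-7 is an established human line labelled as esophageal epithelial. All H3K9Ac peaks that the authors had assigned to transcription starts were taken, and those with a level of at least 30 rescaled reads in the higher library were kept. These were 11968 of 14280 peaks, listed in 16939 of 19826 rows, and they lay at starts of 12803 genes. The 3 histone marks of the study together gave 34314 peaks at that level, of which H3K27Ac gave 12440 and H3K4me3 gave 9906. RNA libraries came from IL-13 and control cells at 2, 6 and 24 hr, 1 of each kind at each time, and the 6 hr pair matches the ChIP-seq in time. The peaks nearest the limit of 30 had levels of 30.1 on the kept side and 29.96 on the other.

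Neither the labels nor the file headers say which of the H3K9Ac libraries had IL-13. They are called library 1 and library 2, M is the log2 ratio of library 1 over library 2, and no difference below has a direction of treatment. A level is the number of reads in a peak after the authors' rescaling, recovered for each library from M and from A, the mean log2 level. It is not scaled to the width of the peak, so levels of different peaks are an order and not a density. With 1 library a group there is no replicate check and no test of any difference. Differences are given by size, and the calls of a gene group are set beside those of all peaks or all genes.

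H3K9Ac is placed on nucleosomes around active promoters by acetyltransferases such as GCN5 and PCAF (KAT2A and KAT2B) and removed by histone deacetylases. Proteins with bromodomains or YEATS domains bind acetylated histones and bring in transcription machinery. IL-13 is a type 2 cytokine that binds a receptor made of IL4R and IL13RA1, whose kinases JAK1 and TYK2 phosphorylate the transcription factor STAT6. In esophageal epithelium it is known for the eosinophil chemokine CCL26, the feedback inhibitors SOCS1 and CISH, and loss of squamous differentiation.

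The promoters of 2 feedback inhibitors, and of 2 genes with large H3K9Ac differences and higher RNA with IL-13, are printed from RefSeq (GRCh38.p14), from 250 bases before the start to 50 after it. CISH lies at chr3:50611725-50612024 on the minus strand, SOCS1 at chr16:11256155-11256454 on the minus strand, LURAP1L at chr9:12774770-12775069 on the plus strand and CDH26 at chr20:59958173-59958472 on the plus strand. Capitals mark matches to TTCNNNGAA, the pattern bound by STAT proteins, or to TTC and GAA parted by 4 bases of any kind, the spacing that STAT6 favours. Both patterns read the same on either strand.
CISH: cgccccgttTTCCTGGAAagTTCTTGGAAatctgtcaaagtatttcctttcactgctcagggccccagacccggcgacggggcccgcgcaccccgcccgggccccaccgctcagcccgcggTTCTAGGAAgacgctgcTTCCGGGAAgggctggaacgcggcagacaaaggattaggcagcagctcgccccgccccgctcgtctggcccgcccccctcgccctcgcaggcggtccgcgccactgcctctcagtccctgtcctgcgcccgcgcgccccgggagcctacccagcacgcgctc
SOCS1: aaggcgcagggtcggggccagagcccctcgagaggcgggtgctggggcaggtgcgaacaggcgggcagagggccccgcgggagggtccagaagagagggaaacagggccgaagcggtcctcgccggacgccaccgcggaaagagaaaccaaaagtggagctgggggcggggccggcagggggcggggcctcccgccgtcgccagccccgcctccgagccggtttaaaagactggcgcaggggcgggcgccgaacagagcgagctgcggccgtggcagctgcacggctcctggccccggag
LURAP1L: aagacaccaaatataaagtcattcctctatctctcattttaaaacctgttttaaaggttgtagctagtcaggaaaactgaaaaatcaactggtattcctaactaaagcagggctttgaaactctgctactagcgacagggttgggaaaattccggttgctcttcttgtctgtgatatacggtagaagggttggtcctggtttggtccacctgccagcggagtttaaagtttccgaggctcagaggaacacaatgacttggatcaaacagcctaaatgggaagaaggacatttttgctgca
CDH26: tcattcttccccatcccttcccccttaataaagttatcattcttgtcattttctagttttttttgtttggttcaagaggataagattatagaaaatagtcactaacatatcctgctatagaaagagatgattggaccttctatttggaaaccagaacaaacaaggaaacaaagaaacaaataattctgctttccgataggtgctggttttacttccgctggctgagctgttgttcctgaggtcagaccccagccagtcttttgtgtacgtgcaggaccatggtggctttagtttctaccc
The CISH promoter held 4 matches to TTCNNNGAA, at 241, 230, 129 and 112 bases before the start counted from the first base of each match, and the other 3 held no match to either pattern. Of 35116 RefSeq promoters of that length, 7.66% held TTCNNNGAA at least once and 7 held it at least 4 times, and 6.44% held the pattern with 4 bases between. CISH and SOCS1 were rich in CpG, with 33 each, while LURAP1L had 5 and CDH26 had 3, against a median of 27 in the 9735 genes with an H3K9Ac peak that matched a RefSeq promoter.

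Most H3K9Ac peaks stood at like levels in both libraries. The median level was 132 in library 1 and 125 in library 2, the median M was 0.07, and the middle 50% of peaks lay between -0.21 and 0.34. Within a 2-fold difference lay 11084 peaks, or 92.6%. Library 1 exceeded library 2 at least 2-fold in 454 peaks, which is 3.79% of 11968, and library 2 exceeded library 1 by as much in 430, which is 3.59%. A 4-fold difference was reached by 44 peaks in favour of library 1 and 50 in favour of library 2. Median M by chromosome ran between 0.02 and 0.15 over 23 chromosomes.

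The spread of M over peaks was wider at low levels. Among the 859 peaks with levels of 30 to 40 in the higher library, M had a standard deviation of 1.04 over peaks, and 13.4% had 2-fold more in library 1, while 15.8% had 2-fold more in library 2. Among the 3204 peaks at 200 to 400 the standard deviation was 0.33, and 0.94% had 2-fold more in library 1, while 0.094% had it in library 2. Of the 725 peaks at 400 or more, 4 passed the 2-fold limit, all of them in favour of library 1. The level of the higher library also decided which peaks were kept, so weak peaks with a large M entered through the library where they were high. By the mean level of both libraries and with no peak left out, a division chosen after seeing the data, the shares ran the same way. Of 843 peaks at mean levels of 30 to 40, 10.4% were past 2-fold in favour of library 1 and 10.1% in favour of library 2. Of 2770 at 200 to 400, 0.361% were past it in favour of library 1 and 0 in favour of library 2.

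**Figure D1:**
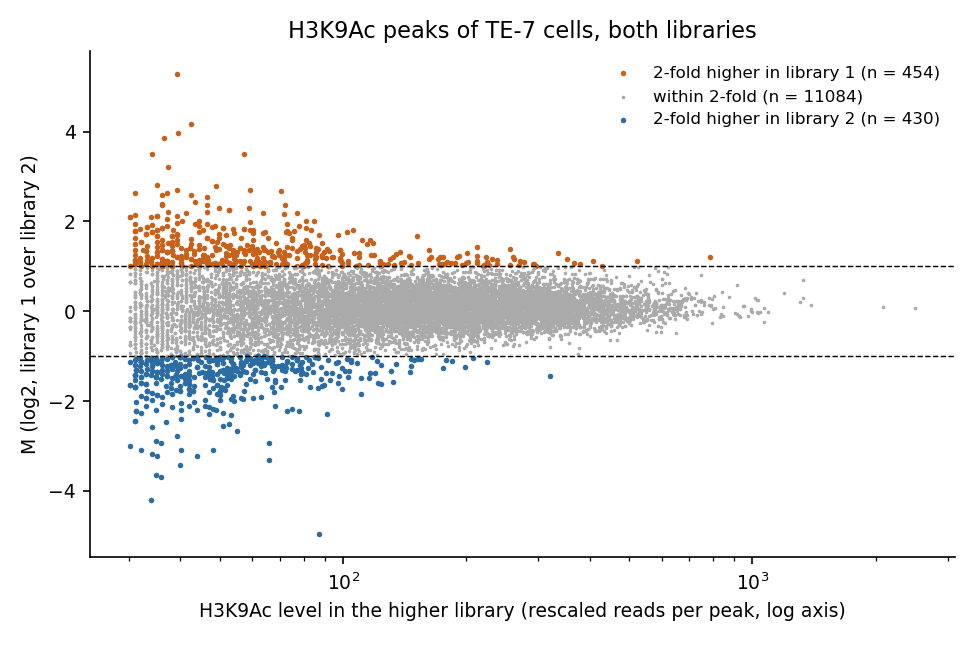
Each point is 1 of the 11968 kept H3K9Ac peaks, placed by its level in the higher library (x, log axis) and by M (y, log2 of library 1 over library 2), with dashed lines at the 2-fold limits. The 454 peaks 2-fold higher in library 1 and the 430 higher in library 2 sit mostly at low levels.

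The authors listed 10522 kept peaks as common to both libraries, 664 as found in library 1 and 782 as found in library 2. Of those listed for library 1, 252 were 2-fold higher in it, and of those listed for library 2, 279 were 2-fold higher in that one. The rest of both lists differed by less than 2-fold, apart from 1 peak listed for library 2 that was 2-fold higher in library 1. Of the common peaks, 201 (1.91%) had 2-fold more in library 1, and 151 (1.44%) had 2-fold more in library 2.

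CCL26, which encodes the eosinophil chemokine eotaxin-3, had the lowest M of the IL-13 responsive genes, set by few reads in library 1. At its listed start inside the gene (chromosome 7, 75401572, minus strand, hg19) the level was 4.71 in library 1 and 34.9 in library 2, and no fold is given because so few reads would set it. At its 5-prime start (75419064) the levels were 16.7 in library 1 and 21.0 in library 2, under the limit of 30. H3K27Ac at the inner start was 56.7 in its library 1 and 238 in its library 2. At the outer start H3K27Ac stood at 58.5 in its library 1 and 56.9 in its library 2. CCL26 RNA at 6 hr was 54.8 RPKM (reads normalised for gene length and library size) with IL-13 and 6.27 RPKM in control cells.

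SOCS1 and CISH bind to activated cytokine receptors or their kinases and shut the signal down. The H3K9Ac level at the SOCS1 start (chromosome 16, 11350039, minus strand, hg19) was 80.2 in library 1 and 147 in library 2, and SOCS1 RNA was 6.87 RPKM with IL-13 and 1.57 RPKM in control cells. At the CISH start (chromosome 3, 50649262, minus strand, hg19), the gene with the 4 STAT pattern matches above, the level was 97.3 in library 1 and 166 in library 2. Its RNA was 14.5 RPKM with IL-13 and 5.04 RPKM in control cells. Both H3K9Ac differences were under 2-fold, at 1.83-fold and 1.71-fold higher in library 2. The H3K27Ac differences at the same starts were larger in size, with SOCS1 at 65.8 in its library 1 and 260 in its library 2, and CISH at 69.8 in its library 1 and 173 in its library 2.

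Upstream of these inhibitors, the receptor gene IL13RA1 differed the other way. Its level was 162 in library 1 and 63.1 in library 2 (chromosome X, 117861558, plus strand, hg19), or 2.57-fold higher in library 1, while its RNA was 17.6 RPKM with IL-13 and 18.0 RPKM in control cells. The partner receptor chain IL4R stood at 254 in library 1 and 280 in library 2, the kinases JAK1 at 146 in library 1 and 148 in library 2 and TYK2 at 98.0 in library 1 and 103 in library 2, and STAT6 at 633 in library 1 and 483 in library 2. Of 35 genes of the receptor, JAK-STAT and feedback list, 31 had a kept peak, and the median M was 0.03. IL13RA1 was the 1 gene of them past the 2-fold limit in either direction. Over all 12803 genes, each taken at its strongest peak, 279 (2.18%) had 2-fold more in library 1 and 209 (1.63%) had 2-fold more in library 2, and the median M was 0.08.

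Of 36 IL-13 responsive genes of epithelia, 17 had a kept H3K9Ac peak, and 14 of these 17 were higher in library 2. Their median M was -0.77, with 5 at least 2-fold higher in library 2 and 0 in library 1. With no minimum level, an alternative chosen after seeing the data, the median was -0.39. Over all genes with a kept peak the shares were 2.18% for library 1 and 1.63% for library 2. Of the 5, CCL26, CDH26 and SYNPO were under the minimum level in library 1, so they were kept only through library 2. LURAP1L and HS3ST1 reached it in both libraries. Of all 859 peaks at levels of 30 to 40 in the higher library, where CCL26 and SYNPO lay, 15.8% had 2-fold more in library 2. The list was drawn up with results of these cells known, and 16 of the 17 genes had at least 2-fold higher RNA with IL-13 at 6 hr, so its direction is not independent of the RNA comparison. CDH26, an epithelial cadherin, stood at 14.6 in library 1 and 53.8 in library 2 (chromosome 20, 58533470, plus strand, hg19). LURAP1L, a homolog of an adaptor protein named LURAP1, stood at 118 in library 1 and 320 in library 2 (chromosome 9, 12775011, plus strand, hg19), and it was the strongest of the 5 peaks. The other members past 2-fold were SYNPO, an actin-associated protein, at 10.7 in library 1 and 33.0 in library 2, and HS3ST1, a heparan sulfate sulfotransferase, at 34.1 in library 1 and 73.0 in library 2.

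Below the 2-fold limit, HAS3, a hyaluronan synthase, stood at 90.8 in library 1 and 175 in library 2. The chloride channel gene ANO1 had levels of 94.7 in library 1 and 168 in library 2. Neither SECTM1, at 483 in library 1 and 521 in library 2, nor LIFR, a cytokine receptor chain, at 192 in library 1 and 199 in library 2, differed much between libraries. SECTM1 RNA was 44.3 RPKM with IL-13 and 9.33 RPKM in control cells, and LIFR RNA was 7.18 RPKM with IL-13 and 1.59 RPKM in control cells. ADAMTS15, a secreted metalloprotease, stood at 68.4 in library 1 and 35.9 in library 2, opposite to most of the list. Its RNA was 7.91 RPKM with IL-13 and 1.65 RPKM in control cells.

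**Figure D2:**
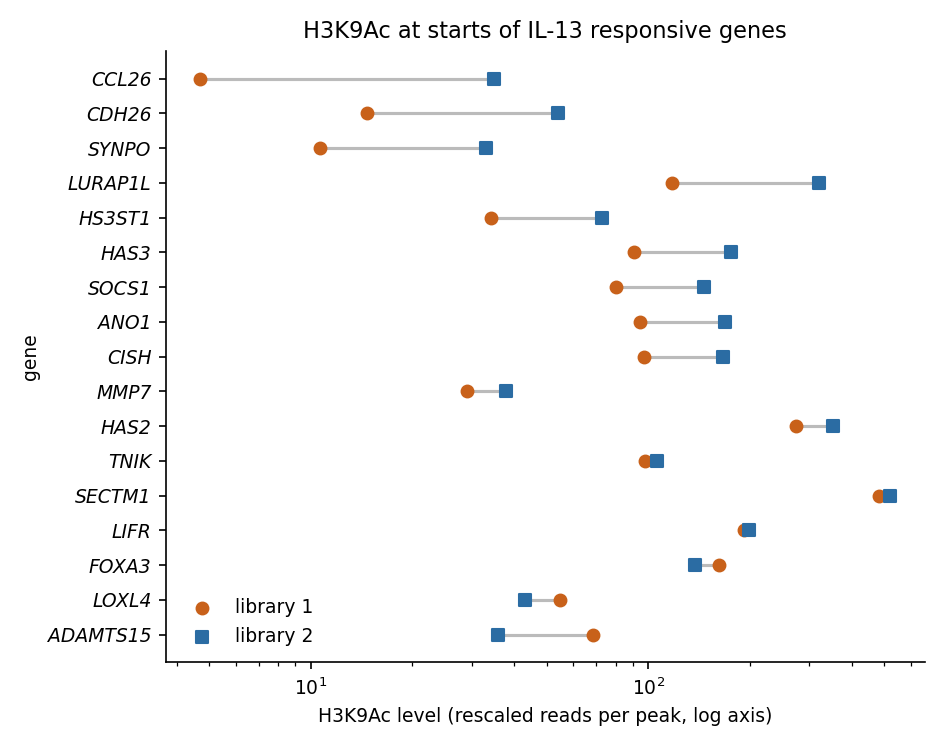
H3K9Ac levels (x, rescaled reads per peak, log axis) of library 1 (circles) and library 2 (squares) at the 17 IL-13 responsive genes with a kept peak, ordered by M. In 14 genes the square lies to the right of the circle, and the widest gap is that of CCL26, at 4.71 in library 1 and 34.9 in library 2.

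The other 19 genes of the list had no kept H3K9Ac peak. Of these, 8 had an H3K27Ac peak, a mark of promoters and enhancers, and 7 of the 8 were at least 2-fold higher in library 2 of that mark. Of all 1905 genes with an H3K27Ac peak and no kept H3K9Ac peak, 22.3% were so. At an H3K27Ac level of at least 30 the count was 5 of 6, against 15.5% of 676 genes. These 5, SERPINB3, SERPINB4, GCNT3, TGM2 and IL19, were under 30 in library 1, so they reached that level only through library 2. The list was drawn up with results of these cells known, so these counts are not independent of them. SERPINB4, a serine protease inhibitor, had H3K27Ac levels of 10.97 in library 1 and 104 in library 2, and GCNT3, a glycosyltransferase of mucin synthesis, had 1.97 in library 1 and 32.1 in library 2. SERPINB4 RNA was 7.81 RPKM with IL-13 and 0.413 RPKM in control cells, although it can share reads with the near-identical SERPINB3. GCNT3 RNA was 2.87 RPKM with IL-13 and 0.072 RPKM in control cells. Whether library 1 of H3K27Ac and library 1 of H3K9Ac had the same treatment is not given in the sources used here.

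The next comparison asked how H3K9Ac stood at genes whose RNA differed with IL-13 at 6 hr. At least 2-fold higher RNA was found for 64 (0.543%) and at least 2-fold lower RNA for 13 (0.11%) of 11797 genes that were 300 bp or longer and reached 1 RPKM. Of the 64, 47 had a kept H3K9Ac peak, with a median level of 108 in library 1 and 162 in library 2. The median M was -0.39, or -0.15 with genes of every length and -0.21 with the authors' adjusted p under 0.05 in place of the size rule. Of the 47, 38 (80.9%) were higher in library 2, against 40.03% of all genes with a peak. At least 2-fold higher in library 2 were 7 of the 47 (14.9%), and 0 were 2-fold higher in library 1. Of the 7, CCL26, CDH26, SYNPO and RAB4B-EGLN2 were under the minimum level in library 1 and were kept only through library 2. Without the 16 that are on the IL-13 list, 31 genes remained, with a median M of -0.37, 24 higher in library 2, and 2 past the 2-fold limit. These 2 were RAB4B-EGLN2, at 24.8 in library 1 and 50.9 in library 2, and DYX1C1-CCPG1, at 32 in library 1 and 64.9 in library 2. Both are read through from neighbouring genes and share their reads.

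Of the 13 genes with lower RNA, 8 had a kept peak, and 6 of these were higher in library 1, with a median M of 0.31. At a minimum of 5 RPKM the median was 0.91. MALL, a membrane protein of the MAL family, stood at 126 in library 1 and 66.9 in library 2, with RNA of 16.7 RPKM with IL-13 and 40.03 RPKM in control cells. RGCC, a regulator of the cell cycle, was 2-fold higher in library 2, at 14.6 in library 1 and 36.0 in library 2, with 1.71 RPKM with IL-13 and 4.12 RPKM in control cells. LRRC24, listed at 0 RPKM with IL-13 and at 1.03 RPKM in control cells, stood at 122 in library 1 and 114 in library 2. C17orf61-PLSCR3, which is read through from neighbouring genes and shares their reads, stood at 75.8 in library 1 and 62.9 in library 2.

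Large RNA differences did not always come with large H3K9Ac differences. MMP7, a matrix metalloprotease, had 12.2 RPKM with IL-13 and 1.09 RPKM in control cells, and its H3K9Ac level was 28.9 in library 1 and 37.9 in library 2. HAS2, another hyaluronan synthase, had 43.0 RPKM with IL-13 and 7.78 RPKM in control cells, at H3K9Ac levels of 274 in library 1 and 352 in library 2. TNIK, a kinase of the Wnt pathway, had 2.83 RPKM with IL-13 and 0.522 RPKM in control cells, at levels of 97.7 in library 1 and 106 in library 2. PPAN-P2RY11, which joins and shares reads with PPAN and P2RY11, had 2.20 RPKM with IL-13 and 0.224 RPKM in control cells, at levels of 165 in library 1 and 204 in library 2.

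**Figure D3:**
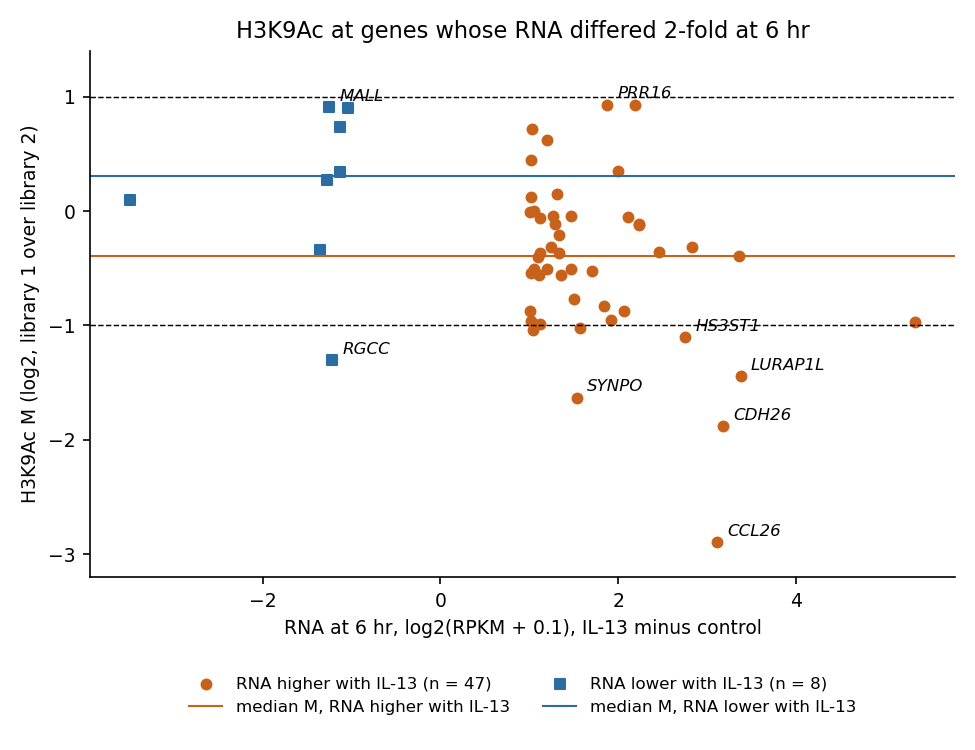
Each point is 1 gene with a kept H3K9Ac peak whose RNA differed at least 2-fold at 6 hr, placed by the RNA difference (x, log2 of RPKM + 0.1, IL-13 minus control) and by M (y, log2 of library 1 over library 2). The 47 genes with higher RNA have a median M of -0.39 and the 8 with lower RNA one of 0.31 (solid lines), and dashed lines mark the 2-fold limits.

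Genes with higher RNA at the other times showed medians close to that at 6 hr. At 2 hr, 31 of 47 such genes had a kept peak and a median M of -0.39, with 4 at least 2-fold higher in library 2. At 24 hr, 41 of 68 had a kept peak and a median of -0.36, with 9 past that limit. The 55 genes with a peak and lower RNA at 24 hr had a median of 0.08, the value of all genes. The 4 genes with a peak and lower RNA at 2 hr had a median of -0.26, with 3 higher in library 2, opposite in sign to the median of 0.31 at 6 hr. The control libraries at 2 and 6 hr held 359 identical values among 17225 genes above 0 RPKM in both (2.08%), and the IL-13 libraries at those times held 0.

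Seen from the side of H3K9Ac, 120 genes with at least 1 RPKM had a peak 2-fold higher in library 2. Of these, 7 (5.83%) had 2-fold higher RNA with IL-13 and 1 had lower RNA. Of 194 genes 2-fold higher in library 1, 0 had a 2-fold RNA difference either way, and of all 10718 genes 47 (0.439%) had higher and 8 (0.0746%) lower RNA. Most genes with a 2-fold H3K9Ac difference thus had RNA within 2-fold. Across the 10718 genes, which share 2 libraries of each assay and are not independent, Spearman's rho of M with the log2 RNA ratio was -0.06.

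The peaks with the lowest M held few reads in library 1, and no fold is given because so few reads set it. In library 2 the peaks named here stood between 32 and 66.0, so some were well above the limit of 30. Among them were ANK1, an ankyrin of the membrane skeleton, at 1.83 in library 1 and 33.9 in library 2, and TRIM16L at 2.78 in library 1 and 34.9 in library 2. PPARG, a nuclear receptor of lipid metabolism, had 2.78 in library 1 and 35.9 in library 2 at both its listed starts (chromosome 3, 12329348 and 12330435, plus strand, hg19). Its RNA was 0.603 RPKM with IL-13 and 0.104 RPKM in control cells. NFE2, a transcription factor of blood cells, stood at 3.73 in library 1 and 39.9 in library 2, GTPBP2, a GTP-binding protein, at 6.66 in library 1 and 66.0 in library 2, and LINC00336 at 4.72 in library 1 and 44.0 in library 2. FAM19A3 stood at 3.76 in library 1 and 35.02 in library 2, the stress-activated kinase MAPK8 at 3.76 in library 1 and 34.1 in library 2, and the zinc finger gene ZNF782 at 3.73 in library 1 and 32 in library 2. RNA of MAPK8, at 9.98 RPKM with IL-13 and 7.53 RPKM in control cells, differed by less than 2-fold.

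At the other end, PTGER4, a receptor of prostaglandin E2, stood at 39.3 in library 1 and 1.00 in library 2 (chromosome 5, 40680031, plus strand, hg19). The microRNA genes MIR4516 and MIR3180-5 stood at 42.4 in library 1 and 2.35 in library 2 and at 39.5 in library 1 and 2.52 in library 2, in separate peaks near each other on chromosome 16. AOAH-IT1 stood at 36.4 in library 1 and 2.49 in library 2, CMAHP, a pseudogene of a sialic acid hydroxylase, at 57.1 in library 1 and 5.01 in library 2, and PALMD at 34.1 in library 1 and 3.01 in library 2. DNAJB5, a heat shock protein partner, stood at 37.3 in library 1 and 4 in library 2, TSHR, the thyrotropin receptor, at 35.1 in library 1 and 5.01 in library 2, and HNRNPM, an RNA-binding protein, at 48.8 in library 1 and 7.01 in library 2. NR1D2, a nuclear receptor of the circadian clock, stood at 59.1 in library 1 and 9.03 in library 2, and its RNA was 3.28 RPKM with IL-13 and 2.84 RPKM in control cells. HNRNPM RNA was 165 RPKM with IL-13 and 169 RPKM in control cells.

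Squamous differentiation genes, whose products build the upper layers of the esophageal lining, were the list with the highest median M. Of 48, 17 had a kept peak, with a median M of 0.37, 13 higher in library 1, 3 at least 2-fold higher in library 1 and 0 in library 2. Of all 12803 genes with a kept peak, 7538 were higher in library 1, with 2.18% at least 2-fold higher in it and 1.63% in library 2. KRT13, a keratin of the layers above the basal one, stood at 50.9 in library 1 and 14.0 in library 2 (chromosome 17, 39661865, minus strand, hg19), and its RNA was 59.4 RPKM with IL-13 and 78.3 RPKM in control cells. KLK13, a secreted protease, stood at 64.4 in library 1 and 30.1 in library 2, and DSG3, a desmosomal cadherin, at 171 in library 1 and 82.1 in library 2. The KRT13 peak was under 30 in library 2, so it was kept only through library 1. At KRT13 the H3K27Ac values ran the other way, at 23.0 in library 1 and 43.9 in library 2 of that mark.

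Genes of basal squamous cells mostly carried strong H3K9Ac. A kept peak was found at 27 of 28, with median levels of 387 in library 1 and 325 in library 2. Their levels in the higher library went down to 36.0. Of the 27, 0 differed 2-fold, against 2.18% of all genes for library 1 and 1.63% for library 2. By sign, 21 of the 27 were higher in library 1, against 7538 of all 12803 genes with a kept peak. TP63, the master regulator of squamous epithelium, stood at 600 in library 1 and 365 in library 2, and PAX9, an esophageal transcription factor, at 1035 in library 1 and 1042 in library 2. SOX2, which had 37.7 RPKM with IL-13 and 16.4 RPKM in control cells, stood at 277 in library 1 and 395 in library 2. Epithelial identity genes such as CDH1, at 221 in library 1 and 204 in library 2, had a kept peak at 19 of 20, and 0 differed 2-fold. Columnar genes had one at 7 of 26, among them KRT8 at 241 in library 1 and 209 in library 2 and GATA6 at 195 in library 1 and 143 in library 2, while CDX2 and MUC6 had no listed peak and RNA listed at 0 in both libraries.

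The label esophageal epithelial was checked against markers of other cells. A kept peak was found at 3 of 20 leukocyte genes, 1 of 12 endothelial genes, 5 of 18 fibroblast and mesenchymal genes and 5 of 18 neuronal and glial genes. Of these 14, 0 differed 2-fold, against 2.18% of all genes for library 1 and 1.63% for library 2. PTPRC, which defines leukocytes, had no kept peak and 0.30 RPKM with IL-13 and 0.27 RPKM in control cells. PECAM1, which defines endothelium, had no kept peak and 0.16 RPKM with IL-13 and 0.11 RPKM in control cells. Of the 18 fibroblast and mesenchymal genes, 6 reached 1 RPKM, the highest being the matrix gene FN1 at 63.1 RPKM with IL-13 and 79.3 RPKM in control cells. SNAI2, a transcription factor also of basal epithelium, had 34.3 RPKM with IL-13 and 33.1 RPKM in control cells. The collagen gene COL1A1 had 2.04 RPKM with IL-13 and 2.44 RPKM in control cells, while DCN and THY1 were listed at 0 in both. The summed RNA of that list was 113 RPKM with IL-13 and 128 RPKM in control cells. The sum of the leukocyte list was 6.15 RPKM with IL-13 and 7.51 RPKM in control cells, and that of the endothelial list was 2.07 RPKM with IL-13 and 1.76 RPKM in control cells. That of the neuronal and glial list was 68.2 RPKM with IL-13 and 74.4 RPKM in control cells.

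Interferon-stimulated genes had calls in both directions. Of 49, 38 had a kept peak, and the median M was -0.05, with 4 at least 2-fold higher in library 1 and 2 in library 2. Over all genes with a kept peak the shares were 2.18% for library 1 and 1.63% for library 2. BST2, an antiviral membrane tether, stood at 787 in library 1 and 343 in library 2, one of the 4 strongest peaks past the limit, and its RNA was 223 RPKM with IL-13 and 231 RPKM in control cells. IRF1, an interferon-induced transcription factor, stood at 117 in library 1 and 38.7 in library 2, and its RNA was 17.3 RPKM with IL-13 and 9.14 RPKM in control cells. OAS1, an antiviral synthetase, stood at 40.2 in library 1 and 17.0 in library 2 and CMPK2, a mitochondrial kinase, at 202 in library 1 and 94.4 in library 2. OASL, a relative of OAS1, stood at 15.7 in library 1 and 39.1 in library 2, and IFIT1, which binds viral RNA, at 44.5 in library 1 and 97.3 in library 2.

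The genes that write, erase and read histone acetylation themselves mostly differed little. Of 51, 45 had a kept peak, with a median M of 0.08, 1 at least 2-fold higher in library 1 and 1 in library 2. Over all genes with a kept peak the shares were 2.18% for library 1 and 1.63% for library 2. KAT6A, an acetyltransferase, stood at 91.1 in library 1 and 35.02 in library 2, and MLLT3, a YEATS-domain reader, at 14.7 in library 1 and 32.1 in library 2. KAT2A, a main writer of H3K9Ac, stood at 31.8 in library 1 and 28.4 in library 2, and EP300 at 338 in library 1 and 282 in library 2, while CREBBP stood at 46.7 in library 1 and 90.2 in library 2 and SIN3A, a scaffold of deacetylase complexes, at 224 in library 1 and 119 in library 2. RNA of these 6 genes differed by less than 2-fold at 6 hr, for example 13.6 RPKM with IL-13 and 12.7 RPKM in control cells for KAT6A.

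Among 48 nuclear receptors, 27 had a kept peak and a median M of 0.04, with NR1D2 2-fold higher in library 1 and PPARG and PPARD in library 2. PPARD stood at 41.4 in library 1 and 103 in library 2, and its RNA was 6.43 RPKM with IL-13 and 6.57 RPKM in control cells. Of 35 inflammatory and NF-kB genes, 20 had a kept peak, with TRAF1, a signalling adaptor, at 48.5 in library 1 and 22.9 in library 2 and NFKB2, an NF-kB subunit, at 38.7 in library 1 and 82.4 in library 2. Of 33 chemokines, 5 had one, and CCL26 was the 1 gene past 2-fold. Of 29 cholesterol genes, 27 had one, and INSIG2, a brake on sterol synthesis, at 82.7 in library 1 and 34.5 in library 2, was past 2-fold. The shares of all genes with a kept peak were 2.18% for library 1 and 1.63% for library 2. NR1D2 and TRAF1 were under 30 in library 2, and PPARG and CCL26 in library 1, so each was kept only through its higher library.

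Gene sets of general cell growth had few calls, as did all genes with a kept peak, at 2.18% for library 1 and 1.63% for library 2. All 61 ribosomal protein genes had a kept peak, with a median M of 0.10, and 2 were 2-fold higher in library 1, RPS14 at 335 in library 1 and 136 in library 2 and RPL10 at 521 in library 1 and 241 in library 2. Neither had an H3K27Ac difference of that size, with RPS14 at 302 in library 1 and 298 in library 2 of that mark, and RPL10 at 232 in library 1 and 221 in library 2. Of 45 cell cycle genes 42 had a kept peak, of 39 immediate early genes 32, and of 39 HOX genes 30, with 0 past 2-fold in these 3 lists. At the shares of all genes, lists of this size would hold few such genes.

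**Figure D4:**
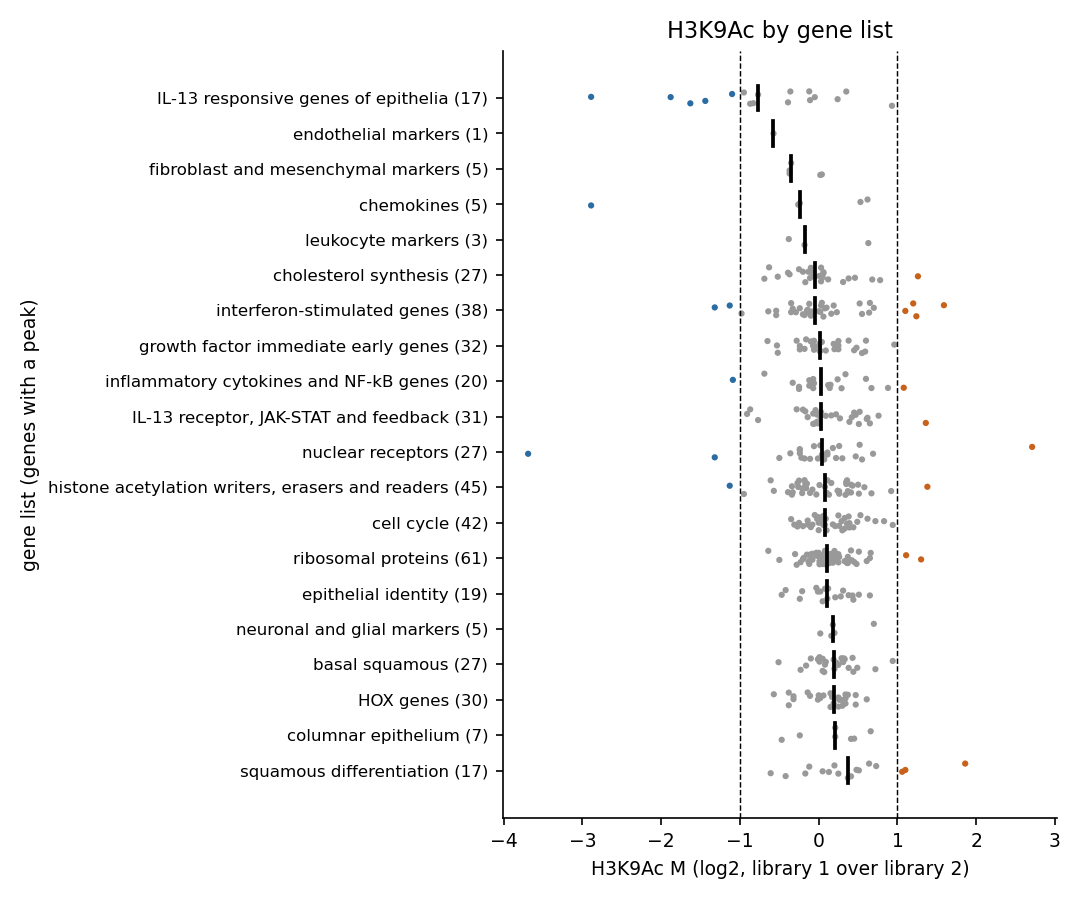
Each point is the M (x, log2 of library 1 over library 2) of 1 gene with a kept H3K9Ac peak, by gene list (rows, number of genes in brackets), with black bars at list medians and dashed lines at the 2-fold limits. IL-13 responsive genes have the lowest median, -0.77, and squamous differentiation genes the highest, 0.37.

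Separate peaks of 1 gene often differed from each other. Of 1784 genes with at least 2 kept peaks, 699 (39.2%) had peaks whose M differed by 1 or more. At the ZNF782 start the weaker peak was at 3.73 in library 1 and 32 in library 2, and the stronger one at 101 in library 1 and 62.0 in library 2. NBPF3 had peaks at 9.19 in library 1 and 52.7 in library 2 and at 50.6 in library 1 and 24.9 in library 2. At the start of GTPBP2 and the neighbouring MAD2L1BP, peaks stood at 6.66 in library 1 and 66.0 in library 2 and at 94.4 in library 1 and 86.8 in library 2. In B4GALT2, a galactosyltransferase, the strongest peak was even at 241 in library 1 and 244 in library 2, and a weak one stood at 9.61 in library 1 and 43.9 in library 2.

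The other acetylation mark was present almost wherever H3K9Ac was. Of 14936 transcript starts with a kept H3K9Ac peak, 14889 (99.7%) had an H3K27Ac peak and 14575 (97.6%) an H3K4me3 peak, a mark of promoters. At the 338 starts where H3K9Ac was 2-fold higher in library 1, the median M of H3K27Ac was 0.21, and 11.5% of those with a peak were 2-fold higher in its library 1, against 2.88% at all starts. There 4.24% were 2-fold higher in library 2 of H3K27Ac, against 1.41% at all starts. At the 242 starts where H3K9Ac was 2-fold higher in library 2, the median was -0.02. It turned positive under the 5 other settings tried, with 10.21% 2-fold higher in library 1 of H3K27Ac and 11.9% in library 2. H3K9Ac peaks past 2-fold sat mostly at low levels, and neither other mark had a minimum level. The shares at all starts are not matched for level, and what level adds to these differences was not tested.

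H3K4me3 at the same 338 starts had a median M of -0.10, with 10.18% 2-fold higher in its library 1 and 13.0% in its library 2. At the 242 starts the median was -0.11, with 6.1% higher in its library 1 and 17.8% in its library 2. At all starts with a kept H3K9Ac peak these shares were 5.57% for library 1 and 4.45% for library 2. Spearman's rho of M across starts, which share libraries and neighbouring peaks, was 0.09 between H3K9Ac and H3K27Ac and 0.07 between H3K9Ac and H3K4me3. All 3 marks had 2-fold more in library 1 at starts of 4 genes, TLR6, LYPD3, BDH2 and WASH3P. All 3 were higher in library 2 at starts of 6 genes, among them PPARG, NDRG4, SPECC1 and SLC9A7, which were named after their values were seen. At all of these starts H3K9Ac was under 30 in the lower library, so the peaks were kept only through the higher one. The other marks had no minimum level, and PPARG H3K27Ac was 1.97 in its library 1 and 19.0 in its library 2. LYPD3, a surface protein of squamous cells, had H3K9Ac levels of 57.1 in library 1 and 16.1 in library 2.

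Genes with stronger H3K9Ac had more RNA. In 5 groups of like size by the mean level of both libraries, from weak to strong, median RNA with IL-13 was 2.52, 7.35, 10.8, 14.9 and 22.3 RPKM, and in control cells 2.48, 7.195, 10.5, 14.6 and 22.4 RPKM. Across 12803 genes Spearman's rho of level with RPKM was 0.40 with IL-13 and 0.40 in control cells. The 9392 genes with no listed peak had a median of 0 RPKM in both libraries, and 7.5% of them reached 1 RPKM.

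The 10 strongest peaks included the start of EGFR, the epidermal growth factor receptor, at 2504 in library 1 and 2369 in library 2 (chromosome 7, 55086724, plus strand, hg19). LANCL2, its neighbour, followed at 2091 in library 1 and 1951 in library 2. Next came AJUBA, a LIM-domain protein of cell junctions, at 1389 in library 1 and 1261 in library 2, and MIR205, a microRNA of squamous epithelium, at 1333 in library 1 and 1082 in library 2. NAB1, a corepressor of EGR factors, stood at 1333 in library 1 and 820 in library 2, the chaperonin subunit gene CCT6A at 1310 in library 1 and 1132 in library 2 and the Notch ligand JAG1 at 1197 in library 1 and 901 in library 2. VOPP1 at 1075 in library 1 and 1090 in library 2, the chaperonin subunit gene CCT5 at 1067 in library 1 and 1010 in library 2 and the myosin MYO10 at 904 in library 1 and 1067 in library 2 completed them.

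Of these 10 peaks, 4 lay within 1.5 Mb of the EGFR start. The 10 kept peaks there had a median mean level of 999.8, against 100.4 for the 17 peaks at 1.5 to 10 Mb from EGFR and 128 for all peaks. The region was centred on the strongest peak of these same data, so its high median is not independent of that choice. SEC61G stood at 910 in library 1 and 976 in library 2, MRPS17 at 562 in library 1 and 624 in library 2, GBAS at 384 in library 1 and 381 in library 2 and CHCHD2 at 993 in library 1 and 959 in library 2. The libraries were even there, with M between -0.15 and 0.21. H3K27Ac near EGFR had a median of 511 against 121 for all its peaks, and H3K4me3 one of 462 against 65.8. EGFR RNA was 134 RPKM with IL-13 and 159 RPKM in control cells.

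**Figure D5:**
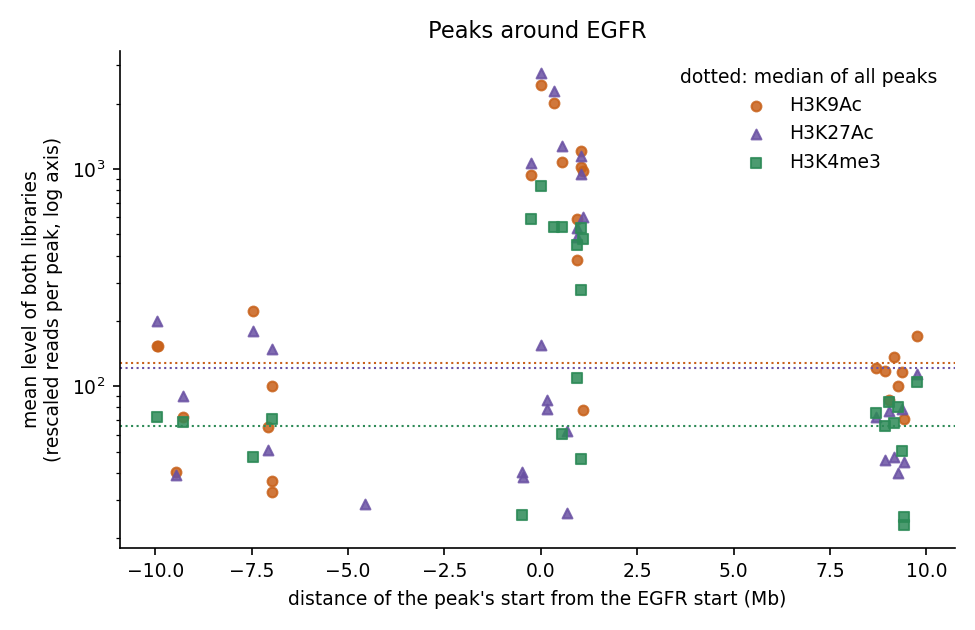
Mean level of both libraries (y, rescaled reads per peak, log axis) of kept peaks of H3K9Ac, H3K27Ac and H3K4me3 against the distance of their start from the EGFR start (x, Mb), with dotted lines at the median of all peaks of each mark. The 10 H3K9Ac peaks within 1.5 Mb have a median of 999.8, against 128 for all peaks.

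Promoter sequence was compared for the 9735 genes (76.0%) that matched a RefSeq promoter. TTCNNNGAA was present in 20 of 210 genes 2-fold higher in library 1 (9.52%), in 5 of 147 genes 2-fold higher in library 2 (3.4%), and in 6.06% of all 9735. The pattern with 4 bases between was in 6.19%, 2.04% and 4.43% of these, and TGANTCA, the pattern of AP-1 factors, in 3.81%, 4.08% and 4.06%. Of the 37 matched genes with a peak and 2-fold higher RNA at 6 hr, 4 held TTCNNNGAA. These are counts of letters in a 300-base window at the RefSeq start, which may not be the start listed in the files.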

How the data were processed

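Aligned reads were processed by the authors with MACS2 2.0.10.20130712 and Bowtie 1.0.0 (ChIP-seq), TopHat2 2.0.9 (RNA) and DESeq (both), on hg19, per the submitters' processing notes. The authors deposited, per the file headers, 3 values per peak under MAnorm column names, which are M as a rescaled log2 ratio, A as its mean log2 level, and a −log10 p, and RPKM with an adjusted p-value per gene. The sources used here do not state read counting, peak widths, library totals or library order, so depth per library is unknown. In all, 6 columns of read numbers without a named sample, 2 of them for H3K9Ac, were not used. Input DNA was not used.

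Levels were computed as 2 to the power A + M/2 for library 1 and A − M/2 for library 2, and kept at 30 or more in the higher one. Rows with identical values at starts within 20 kb were counted as 1 peak, and a gene was taken at its strongest peak. Calls were 2-fold. RNA ratios used log2(RPKM + 0.1), at least 1 RPKM in the higher library and genes of at least 300 bp, and log2 ratios of low genes are understated by the pseudocount. No statistical test of a difference was run. The call rule was also run on simulated peaks, with planted differences larger than 2-fold and counting noise only. Such a run cannot show how reliable the calls between these libraries are. Named were the 10 highest and 10 lowest peaks by M, the 10 strongest, up to 4 members per list past 2-fold, the 10 largest rises and 5 largest falls of RNA with a peak, CCL26, SOCS1 and CISH, and the 5 genes with the most divergent peaks. Some peaks and genes that this rule takes are not reported here. Other members are given for background. The members and lists were chosen with earlier results of these data known. Symbols were matched to RefSeq promoters (GRCh38.p14) by name or unambiguous synonym. The tools were pandas 2.3.3 and NumPy 2.4.6 in Python 3.11.15, with SciPy 1.17.1 and matplotlib 3.10.9.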

Additional observations from a re-analysis of the deposited data

How the results depend on the processing

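The counts of peaks 2-fold apart, the median M of genes with higher or lower RNA at 6 hr, of the IL-13 list and of the other marks were recomputed under other settings, and other values were not, apart from the shares of peaks by level. With a minimum level of 15, 60 or none, the peaks 2-fold higher in library 1 numbered 698, 207 and 920, and those higher in library 2 numbered 721, 138 and 960. With a 1.5-fold limit 1467 were higher in library 1 and 1068 in library 2, and with a 4-fold limit 44 in library 1 and 50 in library 2. Counting every row, adding the authors' p-value of at most 0.01 or centring M moved no count by more than 1.5 times, though centring gave 367 for library 1 and 493 for library 2, which turns the order of the 2 counts. The median H3K27Ac M at starts 2-fold higher in library 1 was 0.15 with a 1.5-fold limit. The median H3K4me3 M there turned to 0.10 with that limit, from -0.10. The median H3K27Ac M at starts 2-fold higher in library 2, -0.02 as reported, lay between 0.01 and 0.15 over 5 other settings. The cause of these moves was not tested.

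The median M of genes with higher RNA at 6 hr ran between -0.40 and -0.15 over its alternatives, one of them, the start of the RNA table alone, chosen after seeing the data. That of genes with lower RNA ran between 0.21 and 0.91, and its 8 genes limit its precision. For the IL-13 list it was -0.77, -0.57 and -0.39 with a minimum level of 15, 60 and none, which was also chosen after seeing the data. M before rescaling was not run, since no column used here gives it. No paired analysis was possible because each group has 1 library. Without replicates, a difference between libraries and an effect of treatment cannot be told apart. The SD of M was 1.04 at levels of 30 to 40 in the higher library, and 0.77 at mean levels of 30 to 40 with no peak left out. Both are spreads over different peaks and do not measure the precision of 1 peak, so any single weak peak is uncertain.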

Other observations

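Highly expressed genes without H3K9Ac were few. Of 6518 genes with at least 10 RPKM at 6 hr, 126 (1.93%) had no listed H3K9Ac peak, and 25 of these had an H3K27Ac peak. Among the 126 were EIF3C, KRT6C and ANXA8L1, which have close copies in the genome and had no listed peak of any mark. KRT14, a basal keratin, had 258 RPKM with IL-13 and 291 RPKM in control cells and peaks of both other marks. MMP1, a collagenase, had 115 RPKM with IL-13 and 94.2 RPKM in control cells and no listed peak of any mark.

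Away from EGFR, the strongest stretches of H3K9Ac were found by the median mean level in windows of 2 Mb with at least 5 peaks. Of 821 such windows, 37 had a median at least 2 times that of all peaks. After the one beside EGFR, the highest was at 6 to 8 Mb of chromosome 5, at 428, which was 3.34 times the median of all peaks, and the same window was 3.68 times the median in H3K27Ac and 3.23 times in H3K4me3. Among the first 10 windows, 3 were on chromosome 20 and 3 on chromosome 8.

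The peak with the largest M, at PTGER4, had a −log10 p of 0.00 in the authors' deposited table, while that of MIR4516, the next one, was 9.44 there. In the same table HAS2 had 18.86 at an M of -0.36. The authors' p was therefore not used to call peaks, and 82 of 884 2-fold peaks had one above 0.01.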
